A study of Mus musculus with 8 samples.

Results

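Dtna, Mobp, Map7d3, Gstm3, Calb2, Vrtn, Foxp1, Epp13 and Cpsf4l are genes whose RNA was strongly reduced in Zfp462 knockout mouse embryonic stem cells (ESCs). The 9 genes were chosen by their measured difference between knockout and control ESCs, out of 55401 genes listed in the count table and 17125 with enough counts to be tested, and all 9 passed the count filter. Their levels in ESCs are therefore given below as a description, without a test, and nothing is supported with them. The choice also took into account that some of them came back in knockout embryoid bodies (EBs), so their EB levels were known and are not independent of it. The p-values given for EBs say only whether a difference was larger than the spread between libraries, and support nothing about the set.

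Polyadenylated RNA was sequenced from R1 cells, an established mouse ESC line, in 4 groups of 2 libraries each. Control ESCs (genotype labelled WT) and ESCs labelled Zfp462 knockout were grown on gelatin in medium with serum and leukaemia inhibitory factor (LIF), a cytokine that keeps mouse ESCs undifferentiated. Control EBs and knockout EBs are the same 2 kinds of cell, dispersed and cultured for 3 days in Petri dishes, where they form floating aggregates and begin to differentiate. The study asked how the loss of Zfp462, a zinc finger protein gene, affects self-renewal and differentiation. The knockout lines are called stable, but neither the edited exon nor the number of clones is given, and the labels do not say that replicates were separate cultures. The p-values therefore measure only the spread between these libraries, which may be technical.

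The 9 genes belong to no single pathway. Dystrobrevins and their partners anchor the dystrophin complex, which ties the actin cytoskeleton to the cell membrane and the matrix outside it, best known in muscle and brain. Proteins of the MAP7 family bind microtubules and bring the motor kinesin-1 to them, and myelin proteins such as MOBP compact the sheath that oligodendrocytes wrap around axons. Glutathione S-transferases detoxify reactive compounds, calretinin (Calb2) buffers calcium in neurons, and forkhead factors such as FOXP1 bind DNA and switch programmes of differentiation. A splice form of Foxp1 found in ESCs is known for a role in pluripotency, but counts summed over a whole gene do not separate splice forms.

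All 9 are annotated as protein-coding in mm10, and no 2 of them share a chromosome. RefSeq (GRCm38.p6, the same assembly) gave 13 promoter windows for 7 of the 9 genes, each with 250 bases before and 50 after a transcription start. Dtna and Calb2 had no window in the table. The 250 bases before the start are shown for 4 genes, because these are the 2 that hold a match to a searched motif (Foxp1, Cpsf4l) and the 2 with the largest knockout difference in EBs (Vrtn, Map7d3). They run 5′ to 3′ along the gene's strand, and capitals mark the SOX motif match, CCATTGT, which is ACAATGG on the other strand.
Foxp1, chr6:99028299-99028548, minus strand: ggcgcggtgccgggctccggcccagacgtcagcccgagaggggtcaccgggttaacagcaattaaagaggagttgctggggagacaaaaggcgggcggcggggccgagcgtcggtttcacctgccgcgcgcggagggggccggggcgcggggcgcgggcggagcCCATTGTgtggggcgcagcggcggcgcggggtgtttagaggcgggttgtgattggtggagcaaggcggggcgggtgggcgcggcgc
Cpsf4l, chr11:113710018-113710267, minus strand: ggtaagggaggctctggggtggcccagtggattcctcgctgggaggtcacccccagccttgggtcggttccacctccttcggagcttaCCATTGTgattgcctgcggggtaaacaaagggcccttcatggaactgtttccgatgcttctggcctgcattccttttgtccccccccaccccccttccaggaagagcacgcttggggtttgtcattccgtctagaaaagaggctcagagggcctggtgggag
Vrtn, chr12:84640769-84641018, plus strand: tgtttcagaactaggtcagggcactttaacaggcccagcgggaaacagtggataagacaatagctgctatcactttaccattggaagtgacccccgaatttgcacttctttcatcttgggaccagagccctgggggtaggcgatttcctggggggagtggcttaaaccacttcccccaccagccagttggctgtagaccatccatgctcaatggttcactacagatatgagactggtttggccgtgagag
Map7d3, chrX:56822326-56822575, minus strand: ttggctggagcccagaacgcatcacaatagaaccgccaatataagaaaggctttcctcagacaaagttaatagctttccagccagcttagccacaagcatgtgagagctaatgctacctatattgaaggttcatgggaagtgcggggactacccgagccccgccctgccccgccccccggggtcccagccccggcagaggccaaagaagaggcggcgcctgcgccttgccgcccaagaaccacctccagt
Only the 250 bases before each start were searched, on both strands, and the 50 bases after it were not. Every count of windows below refers to those 250 bases. The search used 4 motifs of textbook ESC factors and of the core promoter. These were the octamer, spelled ATGCAAAT, the SOX motif above, the ESRRB motif, spelled TCAAGGTCA, and the core promoter box spelled TATAAA. No 2 of these overlap in the windows shown. The SOX letters lie 86 to 80 bases before the Foxp1 start and 162 to 156 bases before the Cpsf4l start, so 2 of the 13 windows hold them, against 3.02% of all 32851 windows in the table. The octamer (1.60% of all windows), the ESRRB letters (0.387%) and the TATA box (12.4%) were found in 0 of the 13 windows. The 4 sequences differ in composition. The Foxp1 window is 74.0% G and C with 34 CpG sites and a CpG observed-over-expected ratio of 1.12, and the last bases of it lie in an exon of another annotated transcript. The Vrtn window has 4 CpG sites and a ratio of 0.241, Cpsf4l 7 sites and 0.315, and Map7d3 12 sites and 0.572, around a median of 0.374 over all windows. The ratio depends on the start chosen. Foxp1 has 2 further windows at other starts (ratios 0.520 and 0.240), Vrtn also has 2 (0.482 and 0.523), and Cpsf4l has another (0.234). None of these further windows held any of the 4 motifs.

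The libraries held 12119763 to 16228426 counts each. Zfp462 itself was lower in every knockout library but still present, at 183 and 197 CPM (counts scaled to library size) in control ESCs, 104 and 107 in knockout ESCs, 154 and 130 in control EBs and 102 and 103 in knockout EBs. The Zfp462 difference was -0.85 ± 0.10 on the log2 scale in ESCs (adjusted p = 0.000366) and -0.47 ± 0.10 in EBs (adjusted p = 0.0207, both edgeR's quasi-likelihood test). Over all tested genes, 6.20% were called lower and 8.30% higher in knockout ESCs, which is 1062 and 1421 genes. In knockout EBs 2.04% were called lower and 4.75% higher, or 350 and 814 genes. These splits moved with the processing, and the cause was not tested. With only the libraries of the stage compared, 407 genes were lower and 951 higher in ESCs, and 1271 lower and 1449 higher in EBs. With each library's trend with GC content removed, 2211 genes were lower and 1925 higher in ESCs, and 1619 lower and 1297 higher in EBs. The trend was largest between the knockout ESC libraries, where replicate 1 minus replicate 2 correlated with GC content over 11328 genes (r = 0.708, across genes, which are not independent), and 282 of these genes differed by more than 2-fold between the replicates, against 22 to 62 in the other groups.

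Markers of some cell types differed between the groups. Of 4 fibroblast and 8 muscle markers tested, 1 each was called in ESCs, higher in the knockout. The ESC markers were present in every library, and their summed level was 6175 to 6284 CPM in control ESCs and 4781 to 4839 CPM in knockout ESCs, with 5 of 10 called lower. In EBs these ESC markers summed to 3727 to 3893 CPM in controls and 3885 to 3916 CPM in the knockout, with 0 called lower and 2 higher. The summed level of 10 extraembryonic endoderm markers, genes of the yolk sac lineage, was 3527 to 3680 CPM in control ESCs and 12180 to 15330 CPM in knockout ESCs, and it was 3661 to 3870 CPM in control EBs and 6854 to 7596 CPM in knockout EBs. All 10 were called higher at both stages. In bulk RNA, fewer cells of a type and less RNA per cell cannot be told apart, and the part of this shift in the values of the 9 genes was not tested. Knockout EB replicate 1 also held adult liver transcripts, at a summed level of 1875 CPM. Control EB replicate 2 held them at a lower level, 27.7 CPM, with 9 of 12 genes at 10 or more counts. The remaining libraries had 2.65 to 6.49 CPM. The part of these transcripts in the EB values was not tested either.

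In knockout ESCs, the 9 genes stood at between 11.5% (Dtna) and 29.8% (Cpsf4l) of the control mean. In each of the 9, both knockout ESC libraries lay below both control libraries. The same was true of 27.5% of all tested genes, and because the ESC libraries chose the genes nothing is read from that comparison. The median log2 difference of the 9 was -2.18, beside -0.03 over all tested genes. The levels were modest to begin with: 8 of the 9 had a mean of 5.25 to 23.6 CPM in control ESCs, and Foxp1 had 53.4 CPM. In knockout ESCs several had only a handful of counts per library, as few as 8 and 11 for Dtna.

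**Figure D1:**
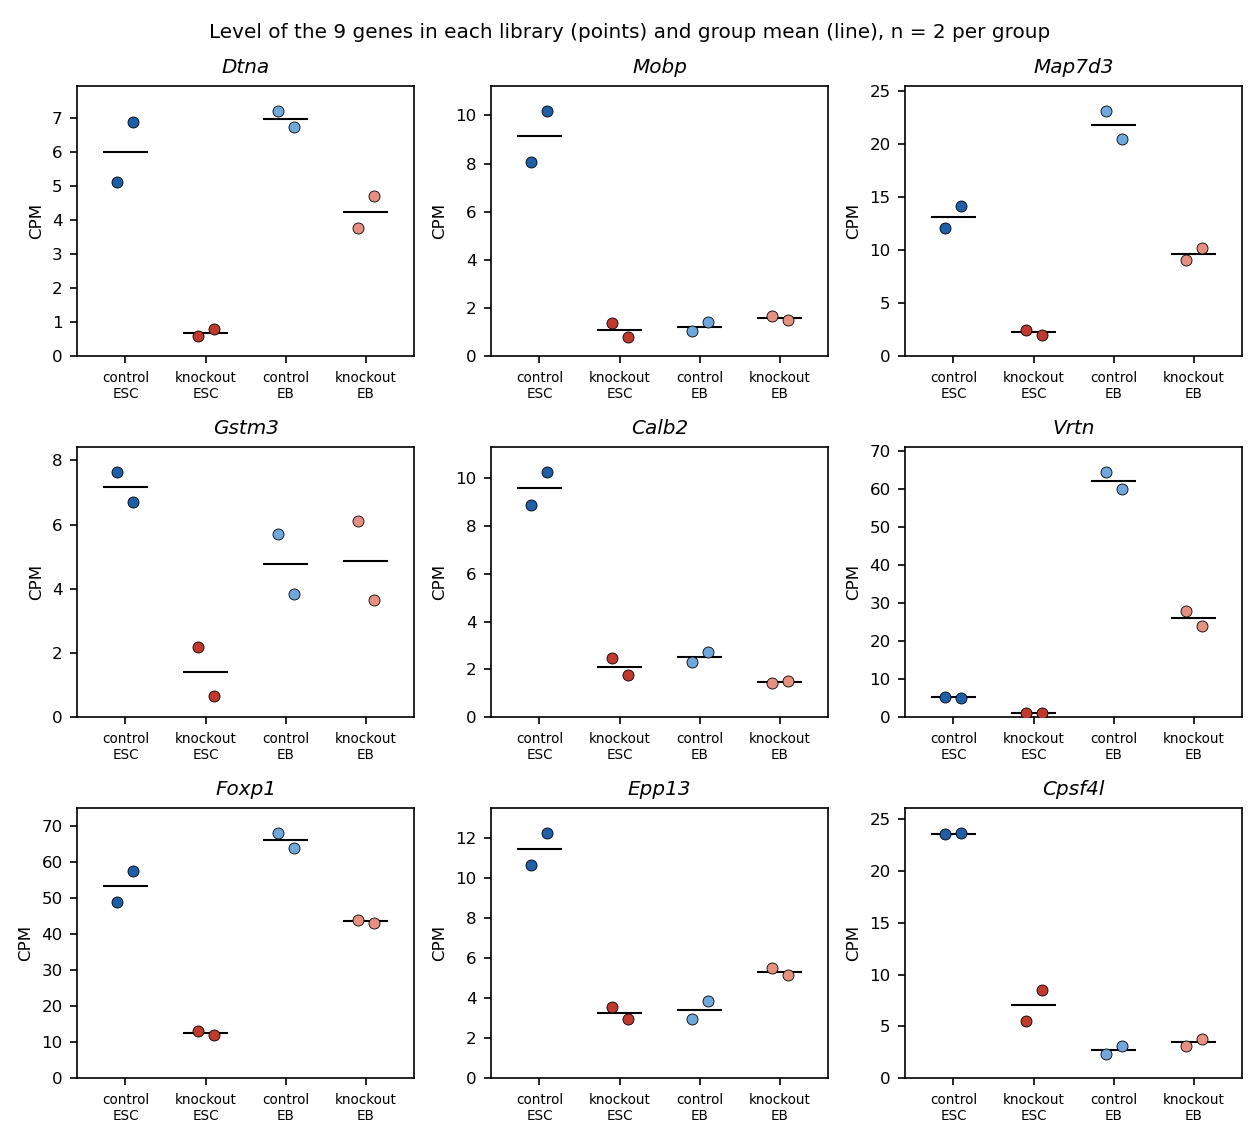
Level of each of the 9 genes in CPM (vertical axes, from 0, one scale per gene) in the 8 libraries (points) and the mean of each group (line, n = 2). Both knockout ESC points lie below both control ESC points in every panel, and the control EB means range from 1.24 CPM for Mobp to 66.1 CPM for Foxp1.

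Dtna encodes alpha-dystrobrevin, a scaffold of the dystrophin complex (chromosome 18, 23415135 to 23659715, plus strand). It stood at 5.13 and 6.88 CPM in control ESCs, 0.583 and 0.801 in knockout ESCs, 7.23 and 6.74 in control EBs and 3.77 and 4.72 in knockout EBs. The knockout ESCs were the low group, at 11.5% of control (-3.11 ± 0.33 on the log2 scale, estimate ± SE), and the other 3 groups ran from 3.77 to 7.23 CPM. Knockout EBs were at 60.7% of control EBs, and their 2 libraries lay below both controls. That difference of -0.72 ± 0.27 did not pass the test (adjusted p = 0.146, edgeR), with a 95% interval of -1.31 to -0.13. An antisense gene inside Dtna, Gm47898, had 1 count over all libraries, against 501 for Dtna.

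Map7d3 encodes a microtubule-binding protein of the MAP7 family (chromosome X, 56797858 to 56822326, minus strand). Control ESCs had 12.1 and 14.1 CPM, knockout ESCs 2.48 and 2.04, control EBs 23.1 and 20.5, and knockout EBs 9.04 and 10.2. Knockout libraries were below controls at both stages, with no overlap. The ESC difference was -2.53 ± 0.22 on the log2 scale, which left 17.3% of the control mean. In EBs Map7d3 fell by 1.18 ± 0.19 on the log2 scale (95% interval -1.60 to -0.77, adjusted p = 0.00473, edgeR), to 44.1% of control. Leaving out control EB replicate 1 (adjusted p = 0.0712) or knockout EB replicate 1 (adjusted p = 0.0511) ended the call.

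Mobp encodes an abundant protein of central myelin (chromosome 9, 120149707 to 120181484, plus strand). It had 8.06 and 10.2 CPM in control ESCs, 1.39 and 0.801 in knockout ESCs, 1.06 and 1.41 in control EBs and 1.66 and 1.52 in knockout EBs. Only the control ESCs stood out, and the other 3 groups together spanned 0.801 to 1.66 CPM, or 11 to 22 counts per library. Knockout ESCs were at 12% of control ESCs (-3.06 ± 0.35 on the log2 scale), and control EBs, after 3 days, were at 13.5% of control ESCs. Between the EB groups the difference was 0.37 ± 0.38 (95% interval -0.47 to 1.20, adjusted p = 0.633), with both knockout libraries above both controls. The summed level of other oligodendrocyte markers was 61.4 to 62.2 CPM in control and 63.5 to 68.9 CPM in knockout ESCs. Of 12 such markers 7 could be tested, 1 was called lower in ESCs and 0 higher, and Opalin, Mag and Olig2 were at 0 to 0.301 CPM in every library.

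Calb2, calretinin, is an EF-hand protein that binds calcium and marks classes of neurons (chromosome 8, 110137502 to 110168210, minus strand). The libraries had 8.88 and 10.3 CPM in control ESCs, 2.48 and 1.75 in knockout ESCs, 2.32 and 2.75 in control EBs and 1.43 and 1.52 in knockout EBs. Control ESCs were again the high group, knockout ESCs and control EBs overlapped, and knockout EBs were lowest. The ESC difference was -2.18 ± 0.28 on the log2 scale (22.1% of control). In EBs the knockout level was 58.3% of control, a difference of -0.77 ± 0.31 that did not pass (95% interval -1.47 to -0.08, adjusted p = 0.184). The summed level of 10 neuron markers was 360 to 370 CPM in control ESCs and 293 to 307 CPM in knockout ESCs, and 1 of the 9 tested was called lower, Map2. In EBs the sum was 167 to 181 CPM in controls and 205 to 215 CPM in the knockout, with Stmn2 called higher and Rbfox3 lower. Stmn2 (283 CPM) and Tubb3 (45.3 CPM) made up most of the sum in control ESCs, Dcx was at 0 in 7 of the 8 libraries, and the part of neuron-like cells in the Calb2 values was not tested.

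Gstm3 encodes a glutathione S-transferase of the mu class (chromosome 3, 107963696 to 107969283, minus strand). It had 7.65 and 6.70 CPM in control ESCs, 2.19 and 0.655 in knockout ESCs, 5.70 and 3.84 in control EBs and 6.10 and 3.65 in knockout EBs. Its knockout ESC replicates were the furthest apart of the 9 genes, 3.34-fold, from 30 and 9 counts, and the EB groups overlapped. The ESC difference was -2.33 ± 0.46 on the log2 scale, and it was -1.71 without knockout ESC replicate 2 and -3.44 without knockout ESC replicate 1. In EBs it was 0.03 ± 0.42 (95% interval -0.91 to 0.96, adjusted p = 0.982), an interval wide enough to hold a change of nearly 2-fold either way. Gstm3 lies in a cluster of mu-class genes, and 28.8% of its 50-base stretches of exon sequence also occur in other genes, Gstm1 first among them, so its counts are uncertain where the counting could split such reads.

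Foxp1 encodes a forkhead transcription factor and was the most highly counted of the 9 (chromosome 6, 98925338 to 99522721, minus strand). Control ESCs had 49.0 and 57.7 CPM, knockout ESCs 13.2 and 11.9, control EBs 68.3 and 63.9, and knockout EBs 44.0 and 43.3. Knockout libraries were lower at both stages, and the replicates of each group were close. The ESC difference was -2.09 ± 0.13 on the log2 scale, 23.6% of control. In EBs Foxp1 fell by 0.60 ± 0.12 on the log2 scale (95% interval -0.86 to -0.34, adjusted p = 0.0136, edgeR), to 66.0% of control. Leaving out any 1 of the 4 EB libraries ended that call, with adjusted p from 0.074 to 0.153, while the estimate stayed between -0.64 and -0.55.

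Vrtn encodes vertnin, a DNA-binding protein best known from livestock, where variants at its locus are associated with the number of vertebrae (chromosome 12, 84641019 to 84651455, plus strand). It had 5.46 and 5.04 CPM in control ESCs, 1.09 and 1.24 in knockout ESCs, 64.7 and 60.0 in control EBs and 28.0 and 24.1 in knockout EBs. The EB libraries were far above the ESC libraries in both genotypes, and the knockout was lower at each stage. The ESC difference was -2.16 ± 0.22 on the log2 scale, from 15 and 17 counts in the knockout, or 22.2% of control. In EBs Vrtn fell by 1.26 ± 0.13 on the log2 scale (95% interval -1.55 to -0.96, adjusted p = 0.000421, edgeR), to 41.8% of control. This call was kept without each of the 8 libraries in turn, with adjusted p of 0.021 at most.

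Cpsf4l is named for its likeness to CPSF4, a zinc finger subunit of the factor that cleaves pre-mRNA before the poly(A) tail is added (chromosome 11, 113698172 to 113710017, minus strand). It had 23.5 and 23.7 CPM in control ESCs, 5.54 and 8.52 in knockout ESCs, 2.32 and 3.14 in control EBs and 3.16 and 3.81 in knockout EBs. Both EB groups were below the knockout ESCs. The ESC difference was -1.75 ± 0.24 on the log2 scale (29.8% of control), and the EB difference was 0.36 ± 0.29 (95% interval -0.28 to 1.00, adjusted p = 0.526). Epp13 (chromosome 7, 6252710 to 6282066, plus strand) had 10.7 and 12.3 CPM in control ESCs, 3.57 and 2.98 in knockout ESCs, 2.98 and 3.84 in control EBs and 5.50 and 5.17 in knockout EBs. Knockout ESCs and control EBs overlapped, and knockout EBs lay between them and the control ESCs. Its ESC difference was -1.81 ± 0.24 on the log2 scale (28.6% of control). In EBs the Epp13 level was 156% of control, a difference of 0.65 ± 0.25 that did not pass (95% interval 0.10 to 1.20, adjusted p = 0.156).

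Of the 9 genes, 3 were called lower in knockout EBs (Vrtn, Map7d3 and Foxp1), 0 were called higher and 6 did not pass, beside the 2.04% of all tested genes called lower and the 4.75% called higher. DESeq2 gave the same counts of 3 and 0. At an unadjusted p below 0.05 (edgeR) there were 5 lower and 1 higher, the latter being Epp13, beside 8.73% and 12.7% of all tested genes. Since the EB levels were known when the genes were chosen, nothing is read from these counts against the background. Both knockout EB libraries lay below both controls for 5 of the 9 (Dtna, Map7d3, Calb2, Vrtn and Foxp1), as they did for 29.4% of all tested genes. They lay above both controls for 3 (Mobp, Epp13 and Cpsf4l), against 30.0% of all tested genes, and overlapped for Gstm3. The median log2 difference of the 9 in EBs was -0.60, beside 0.00 over all tested genes. Libraries other than those of the EBs added to the estimate of the spread but not to these levels.

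**Figure D2:**
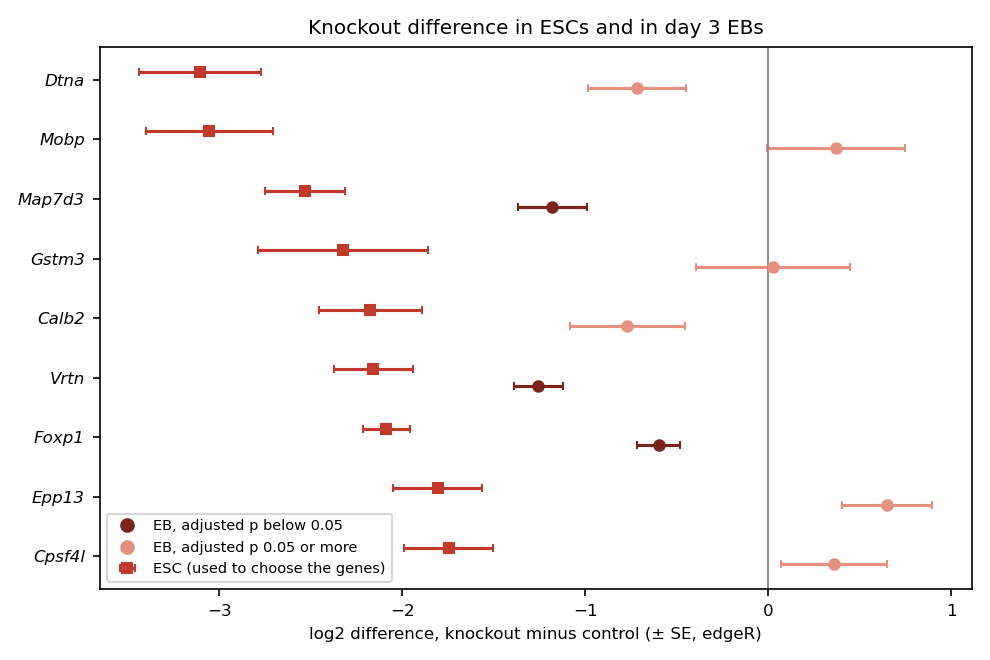
Log2 difference between knockout and control (horizontal axis, estimate ± SE by edgeR) for each of the 9 genes, as squares in ESCs and circles in day 3 EBs, with dark circles for an adjusted p below 0.05. The squares lie between -3.11 and -1.75, and the circles between -1.26 and 0.65, with 3 of them dark.

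Each knockout library can also be set against the mean of the controls of its stage, on a log2 CPM scale with a prior count of 2. In knockout ESCs, replicate 1 lay lower by 1.64 to 3.06 and replicate 2 by 1.46 to 3.28. Replicate 2 was the lower one for 6 of the genes and replicate 1 for Dtna, Vrtn and Cpsf4l. The GC content of the 9 genes ran from the 11.2th percentile of genes (Map7d3) to the 81st (Vrtn). How far these replicate differences followed the trend with GC content was not tested. In knockout EBs the 2 replicates lay on the same side of the control mean for 8 genes. Gstm3 was the other one, at 0.37 in replicate 1 and -0.35 in replicate 2.

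**Figure D3:**
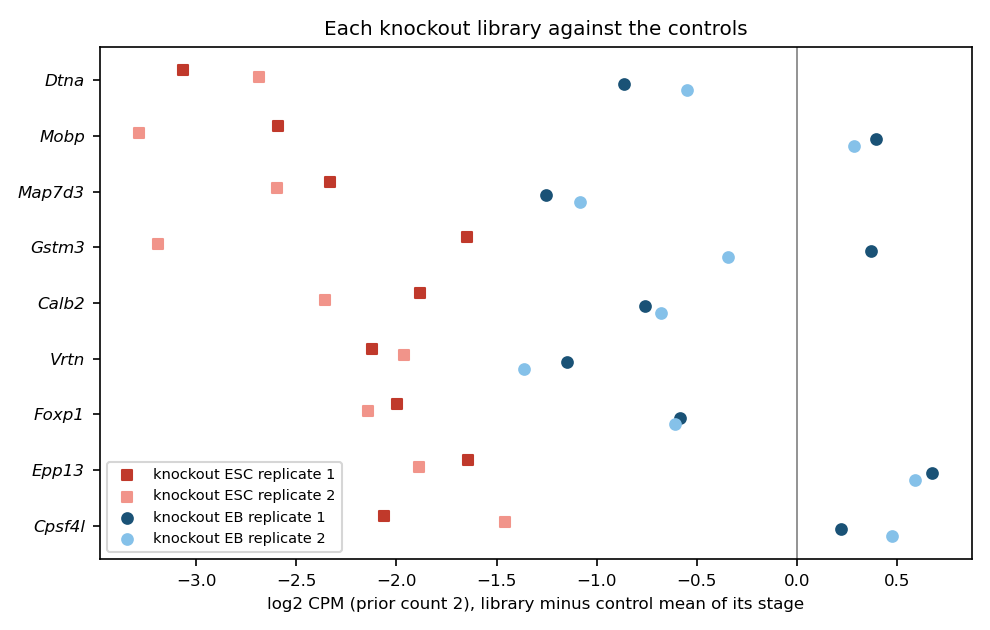
Difference of each knockout library from the control mean of its stage (horizontal axis, log2 CPM with a prior count of 2), as squares for ESCs and circles for EBs, one row per gene. All ESC squares lie at or below -1.46, and the 2 EB circles of a gene lie on the same side of 0 except for Gstm3.

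The course from ESC to EB separated the genes. It is described without a test, since the ESC libraries chose them and the 2 sets below were drawn after their values were seen. In controls, 4 genes had an EB mean under 30% of the ESC mean: 11.6% for Cpsf4l, 13.5% for Mobp, 26.5% for Calb2 and 29.7% for Epp13. For Mobp, Calb2 and Epp13 the control EB libraries overlapped the knockout ESC libraries, and for Cpsf4l they lay below them. In the knockout these 4 genes had EB-to-ESC ratios nearer to 1, of 0.496 (Cpsf4l), 0.699 (Calb2), 1.45 (Mobp) and 1.63 (Epp13). In the other 5 genes the EB-to-ESC ratio of the controls was 0.665 for Gstm3, 1.16 for Dtna, 1.24 for Foxp1, 1.67 for Map7d3 and 11.9 for Vrtn.

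In the knockout the EB-to-ESC ratio of those 5 genes was 3.43 (Gstm3), 3.47 (Foxp1), 4.26 (Map7d3), 6.13 (Dtna) and 22.4 (Vrtn). The genes were chosen for low knockout ESC levels, so nothing is read from the size of these ratios. The knockout EB mean was 68.0% (Gstm3), 70.6% (Dtna), 73.5% (Map7d3) and 81.8% (Foxp1) of the control ESC mean. Both knockout EB libraries of each of these genes stayed below both control ESC libraries. Vrtn alone lay above the control ESC mean, at 497%. Relative to control EBs, the level was 102% for Gstm3, 66.0% for Foxp1, 60.7% for Dtna, 44.1% for Map7d3 and 41.8% for Vrtn. For Mobp, Epp13 and Cpsf4l, the knockout EB level was 129%, 156% and 128% of the control EB level, where the control level was itself the lower one of the 2 stages.

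**Figure D4:**
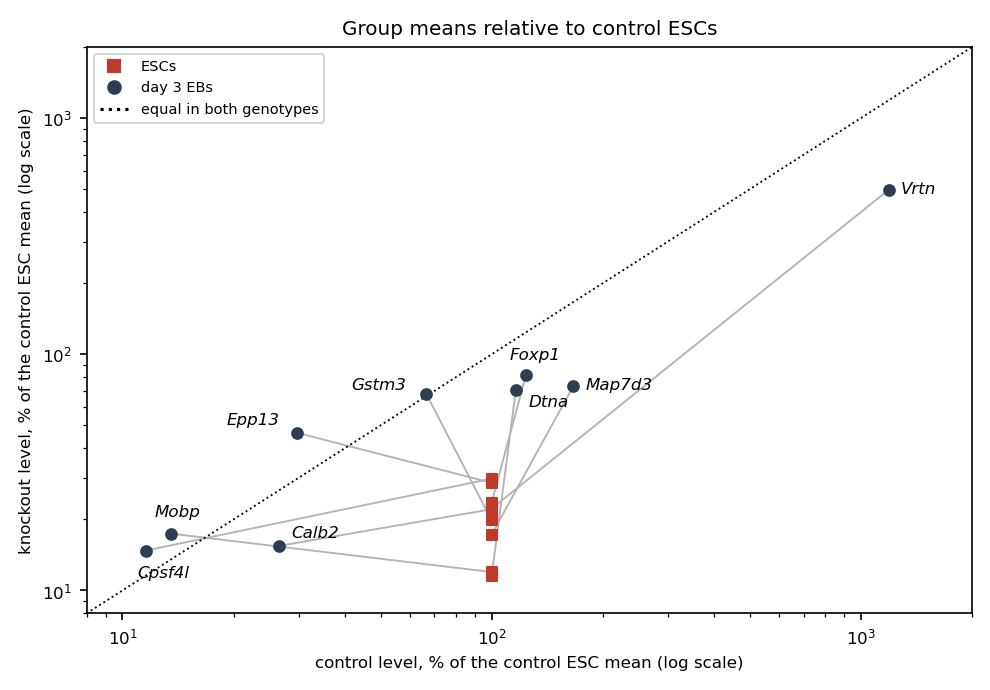
Mean knockout level against mean control level, both in % of the control ESC mean on log axes, with squares for ESCs, circles for day 3 EBs and a grey line joining the 2 stages of each gene. The squares stand at 100% on the horizontal axis by construction, 4 circles lie to the left of 30% and Vrtn lies at 1189% in controls and 497% in the knockout.

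Levels of different genes can be compared only per length, here as CPM per kilobase of annotated exon, which understates genes with many alternative exons such as Dtna and Foxp1. In control ESCs the order was Epp13 (11.3 ± 1.13, mean ± SD, n = 2), Cpsf4l (10.5 ± 0.0568), Calb2 (5.49 ± 0.561), Gstm3 (5.47 ± 0.517), Map7d3 (4.53 ± 0.508), Foxp1 (3.88 ± 0.446), Vrtn (1.45 ± 0.0820), Mobp (1.33 ± 0.221) and Dtna (0.355 ± 0.0731). Epp13 and Cpsf4l, Calb2 and Gstm3, Map7d3 and Foxp1, and Vrtn and Mobp were each closer than their spread. In knockout ESCs Epp13 (3.22 ± 0.409) and Cpsf4l (3.13 ± 0.937) still led and did not differ beyond their spread, and Mobp (0.160 ± 0.0604) and Dtna (0.0409 ± 0.00908) were lowest. In control EBs Vrtn led with 17.3 ± 0.925, followed by Map7d3 (7.54 ± 0.654) and Foxp1 (4.81 ± 0.225), and Mobp was last at 0.181 ± 0.0362. In knockout EBs Vrtn led with 7.23 ± 0.763, then came Epp13 (5.24 ± 0.225), and Dtna (0.251 ± 0.0398) and Mobp (0.232 ± 0.0139) were last and within their spread.

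Ordered by log2 difference among the 959 genes that were called lower in ESCs and averaged 5 CPM or more in control ESCs, the 9 genes do not form one unbroken block. The first 7 places were Dtna to Foxp1, while Epp13 stood at place 18 and Cpsf4l at place 27, so 18 genes outside the set lay above the last one. Just below Foxp1 (-2.09) came Tfap2c, a transcription factor of trophoblast and germ cells (-2.02), Fndc3c1 (-2.01), Dlgap3 (-1.94) and Gap43, a growth cone protein (-1.91). Epp13 (-1.81) lay between Ina, a neuronal intermediate filament (-1.83), and the neurogenic factor Neurod1 (-1.80). Cpsf4l (-1.75) lay between Piwil4 (-1.76) and Actn3 (-1.73). These places follow from the ESC differences that chose the 9 genes, so nothing is read from them. They also depend on the cut at 5 CPM. It leaves out called genes of lower level with larger differences, such as Btbd17 (-6.40, at 0.746 CPM in control ESCs). No gap in size follows Foxp1.

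The relatives of the 9 genes were described from 7 lists of the same families and complexes, leaving the 9 genes out. Of 140 listed relatives 110 could be tested, of which 11 were called lower in knockout ESCs, 13 higher and 86 not, with a median of -0.08 (edgeR, all genes: 6.20% lower and 8.30% higher). In EBs 4 were lower, 7 higher and 99 not called (all genes: 2.04% lower and 4.75% higher). Among 10 tested partners of Dtna in the dystrophin complex, 2 were lower in ESCs, among them utrophin (Utrn, -0.75 ± 0.13, adjusted p = 0.0041). The adaptor Sntb1 (0.87 ± 0.19, adjusted p = 0.0109) and the sarcoglycan Sgce (0.75 ± 0.16, adjusted p = 0.00941) were higher, and Dmd was at -0.26 ± 0.11 (adjusted p = 0.164). In EBs 0 of these 10 were called.

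Of 16 tested relatives of Map7d3 (the MAP7 family, other microtubule-associated proteins and kinesin-1), 4 were lower in ESCs and 0 higher. They were Map1b (-0.96 ± 0.10, adjusted p = 0.000165) and Map2 (-1.41 ± 0.37, adjusted p = 0.0296), which bind neuronal microtubules, Map9 (-0.65 ± 0.16, adjusted p = 0.0231) and Map7 (-0.45 ± 0.13, adjusted p = 0.0401). In EBs Map1b and Map6 were lower and Mapt, which encodes tau, was higher. Of 19 tested glutathione S-transferases, 3 were lower in ESCs, Gsta4 (-0.71 ± 0.10, adjusted p = 0.00118), Gstt2 (-1.20 ± 0.18, adjusted p = 0.0013) and Gstm1 (-0.73 ± 0.16, adjusted p = 0.0112). Gstp2 was higher (0.99 ± 0.16, adjusted p = 0.00203) and 15 were not called. In EBs Gsta4 and Gstt2 were lower and Gstp2 and Gsta3 higher. Gsta3 stood at 31.9 CPM in knockout EB replicate 1, the library with the most liver transcripts, and 8.45 CPM in the other knockout EB library.

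Of 12 tested EF-hand relatives of Calb2, 7 were called higher in knockout ESCs, 0 lower and 5 were not called. The intestinal calbindin S100g rose (log2 difference 2.41 ± 0.22, adjusted p = 7.28e-05), and so did the calcium-binding chaperone-like protein calumenin (Calu, 0.52 ± 0.10, adjusted p = 0.00657). In EBs only S100g of these 12 was called, again higher. Of 24 tested forkhead genes beside Foxp1, Foxo1 (-0.60 ± 0.15, adjusted p = 0.0207) and Foxd3 (-0.71 ± 0.21, adjusted p = 0.0483) were lower in ESCs. Foxa2, a pioneer factor of endoderm (1.56 ± 0.22, adjusted p = 0.000962), Foxq1 (1.42 ± 0.23, adjusted p = 0.00205) and Foxn4 (1.20 ± 0.35, adjusted p = 0.0465) were higher in ESCs, and the same 3 were called higher in EBs. All of these adjusted p are edgeR's. Of 9 tested genes of somite formation, the setting in which Vrtn is known, and of 20 cleavage and polyadenylation factors, the relatives of Cpsf4l, 0 were called at either stage.

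The chromosomal surroundings were described with the 3 nearest tested genes on each side of each gene, 54 in all. In knockout ESCs 4 were called lower, 6 higher and 44 not, with a median of -0.10, and in EBs 0 were lower, 5 higher and 49 not called. Over all tested genes, 6.20% were called lower and 8.30% higher in ESCs, and 2.04% lower and 4.75% higher in EBs. Nothing about the surroundings is read from these few calls. The lower ones were Gstm1 beside Gstm3, Marveld3 beside Calb2 (-1.41 ± 0.35, adjusted p = 0.0233), and Cdc42ep4 (-0.60 ± 0.16, adjusted p = 0.0334) and Sdk2 (-1.35 ± 0.36, adjusted p = 0.0297) beside Cpsf4l. Gstm1 is also counted among the relatives and shares sequence with Gstm3. All 3 called neighbours of Map7d3, among them Fhl1 (0.63 ± 0.10, adjusted p = 0.00184) and Mmgt1 (0.46 ± 0.12, adjusted p = 0.0277), were higher, and all 3 lie on the same side of it. Mitf, a transcription factor of melanocytes and the eye and a distant neighbour of Foxp1, was higher as well (1.48 ± 0.22, adjusted p = 0.00141), as were Hydin near Calb2 (0.86 ± 0.17, adjusted p = 0.00637) and, 43.4 kilobases from the start of Mobp, the lincRNA gene ENSMUSG00000111360.1 (1.97 ± 0.49, adjusted p = 0.0237). The latter shares its symbol, Gm38642, with a different gene model that overlaps Mobp and had 2 counts over all libraries. Around Dtna, Vrtn and Epp13, 0 of the 6 neighbours each were called in ESCs. Not all neighbours were close. At lower coordinates, those of Dtna started at -1071, -2115 and -2353 kilobases from it, and those of Foxp1 at -1716, -1905 and -2312. Some also had few counts, such as Snora62 beside Mobp, at 0.409 CPM in control ESCs. The adjusted p in this paragraph are edgeR's.

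**Figure D5:**
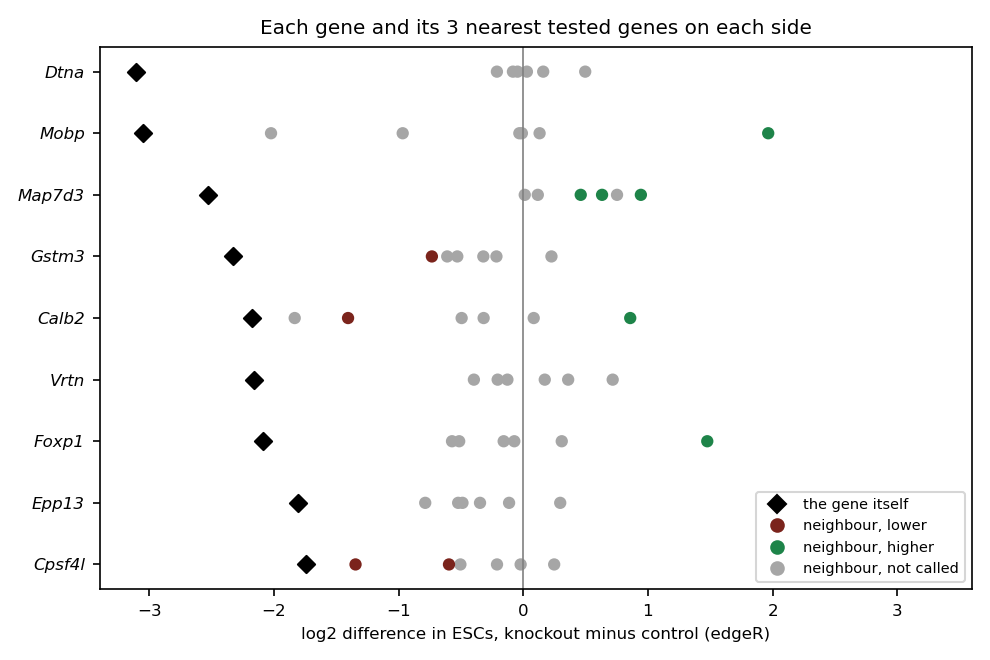
Log2 difference in ESCs (horizontal axis, knockout minus control, edgeR) of each of the 9 genes (black diamonds) and of its 3 nearest tested genes on each side (circles, coloured where called). Every diamond lies to the left of all circles in its row, and the 4 called lower neighbours lie beside Gstm3, Calb2 and Cpsf4l.

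For each gene the 3 genes with the most similar pattern were found by Pearson correlation of log2 CPM over the 8 libraries among 11323 genes averaging 5 CPM or more. These correlations rest on 4 groups of 2 libraries, are blind to the size of a change, and are given without a test. Dtna was most like Kank1 (r = 0.997), 1600020E01Rik (0.992) and Dppa4 (0.991), and Foxp1 was most like Wwp2 (0.993), Dppa4 (0.991) and 1600020E01Rik (0.990). Vrtn had Snrpn, Grhl2 and Lef1 (0.997 each), and Map7d3 had Ina (0.995) and Lin28a (0.993) among its 3. Calb2 was nearest to Sox15 (0.992), Ifitm1 (0.990) and Naa30 (0.982), and Cpsf4l to Ric8b (0.994), Fut9 (0.983) and Exoc6b (0.983). Mobp had Padi2 (0.985), Itga9 (0.977) and Atmin (0.977), Epp13 had Anxa7 (0.981), Padi2 (0.969) and Mief1 (0.968), and Gstm3 had Slc9a8 (0.979), Dock6 (0.971) and Ldb1 (0.967).

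These likenesses hide wide gaps in size. Kank1 stood at 25.8 CPM in control and 16.5 CPM in knockout ESCs (-0.65 ± 0.13 on the log2 scale), a far smaller difference than that of Dtna. Ina came closer to its partner Map7d3: it had 48.6 CPM in control ESCs, 13.7 in knockout ESCs, and 70.8 and 39.0 CPM in the control and knockout EBs. Lef1, a factor of WNT signalling, had 9.68 CPM in control ESCs, 3.32 in knockout ESCs, and 53.6 and 33.8 CPM in the control and knockout EBs, the same order of groups as Vrtn. Padi2, an enzyme that converts arginine to citrulline in proteins, was among the 3 nearest genes of both Mobp and Epp13, with 9.67 CPM in control ESCs and 2.77, 3.63 and 3.97 CPM in knockout ESCs, control EBs and knockout EBs. The pluripotency-associated gene Dppa4 was near both Dtna and Foxp1, with 169 CPM in control ESCs and 125, 178 and 158 CPM in the other groups in the same order.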

How the data were processed

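RNA was measured in 8 libraries, 2 for each of 4 groups, each assigned by its label. Per the file headers, the deposited values are raw whole-number counts for each gene. Alignment to mm10 with HISAT2, counting with featureCounts and DESeq2 appear, without versions, in the submitters' processing notes. The strand setting and the handling of shared reads are not stated there, so antisense reads and reads of near-identical genes cannot be told apart. Of 55401 genes, 23376 had 0 counts in every library, and 55141 IDs matched a symbol in GENCODE M21. Library totals of 12119763 to 16228426 leave the low members with 8 to 30 counts in some libraries.

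From the counts, edgeR 4.0.16 (R 4.3.3) kept 17125 genes (filterByExpr), computed TMM-scaled CPM, and fitted a quasi-likelihood model to all 8 libraries with 1 mean per group (common coefficient of variation 0.132). The Benjamini-Hochberg adjustment ran over all tested genes, with calls below 0.05, and 95% intervals used the moderated degrees of freedom. The 9 genes, the family lists, the marker lists and the motifs were chosen with earlier results of these data known. Genes named were the 9, Zfp462, up to 3 called relatives and neighbours a list with the smallest adjusted p, genes next to the 9 in the order of ESC differences, and the 3 most similar genes each; other relatives, among them Dmd, Map7, Gstm1, Foxd3 and Foxn4, and the EB calls were named after their values were seen. Some genes that meet these rules are left out of the text. Alternatives were other scaling factors (median of ratios, or library totals), no count filter, a minimum mean of 1 CPM, a replicate block, only the libraries of the stage compared, a GC trend removed (spline with 5 degrees of freedom), DESeq2 1.42.0, each library left out and, added after seeing the data, a crossed block. The procedures were tested on simulated data.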

Additional observations from a re-analysis of the deposited data

Results flagged for a closer look

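In 3 of the 9 genes every knockout ESC library lay below the controls while every knockout EB library lay above them. The EB difference was 0.37 for Mobp, 0.65 for Epp13 and 0.36 for Cpsf4l on the log2 scale, against -3.06, -1.81 and -1.75 in ESCs. None of the 3 EB differences passed the test (edgeR's quasi-likelihood adjusted p = 0.633, 0.156 and 0.526), and the difference between the stages was not tested, since the ESC libraries chose the genes. In each of the 3, the control level itself was 3.36-fold to 8.66-fold lower in EBs than in ESCs. Both knockout EB libraries lay above both controls for 30.0% of all tested genes. The 3 of 9 are near that share, so nothing is read from their number.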

How the results depend on the processing

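All 9 ESC differences stayed negative under every alternative run. They moved by more than the spread between replicates without knockout ESC replicate 1 for Mobp (-3.51), Gstm3 (-3.44) and Calb2 (-2.46), and without knockout ESC replicate 2 for Cpsf4l (-2.09). The 3 members called lower in EBs numbered 3 under every alternative that kept all EB libraries, and 1 to 3 with a library left out. Vrtn was called throughout, Map7d3 was lost without control EB replicate 1 or knockout EB replicate 1, and Foxp1 without any 1 EB library. The EB difference of Gstm3 turned negative with the GC trend removed (-0.0392), and ran from -0.38 to 0.35 with a library left out.

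The wider counts moved more. Genes called in EBs numbered 1164, and 2094 without the low-count filter, 2720 with only the EB libraries, 2916 with the GC trend removed and 236 to 3127 with a library left out. Genes called in ESCs numbered 2483, and 1358 with only the ESC libraries, 4136 with the GC trend removed and 756 to 4729 with a library left out. Relatives called lower in ESCs numbered 11, and 17 without the filter, 6 with only the ESC libraries, 25 with the GC trend removed and 3 to 31 with a library left out. For neighbours called lower the count was 4, and 1 with only the ESC libraries, 8 with the GC trend removed and 0 to 8 with a library left out. The cause was not tested.

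Same-numbered replicate deviations had a correlation of -0.0399 in ESCs and -0.238 in EBs, so no pairing by equal number was seen. The EB libraries with liver transcripts, control replicate 2 and knockout replicate 1, carry opposite numbers. Their part in the value of -0.238 was not tested. With the replicate block 3 members were still lower in EBs, of 967 genes called. The crossed block, with the numbers of the knockout EB libraries swapped, gave 3 of 1035. Counts of 8 to 30 in at least 1 knockout ESC library limit the precision for Dtna, Mobp, Map7d3, Gstm3, Calb2 and Vrtn. In EBs the same limit holds for Mobp, with 16 to 22 counts per library, and for Calb2, with 19 and 20 in the knockout.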
